A study of Homo sapiens with 30 samples.

Results

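Genes for 10 core proteins of the Polycomb repressive complexes PRC1 and PRC2 were followed in G401 cells, a malignant rhabdoid tumor line that lacks the SWI/SNF subunit SNF5. The 10 members were chosen by name, beside 20367 gene symbols in the PRO-Seq table: EZH1, EZH2, EED, SUZ12 and JARID2 of PRC2, and BMI1, RING1, RNF2, CBX2 and CBX8 of PRC1. G401 cells were transduced with lentiviral TET-inducible constructs for EGFP (the control), OmoMYC or SNF5, selected with G418, and sampled 24 h after addition of 1 μg/ml doxycycline, which all samples received, the EGFP controls included. OmoMYC is a dominant-negative form of the dimerization domain of MYC, and SNF5 is the product of SMARCB1. PRO-Seq, a nuclear run-on assay that maps active RNA polymerases, and ATAC-Seq, which marks accessible chromatin, were each done in 3 samples per construct, and MYC ChIP-Seq in 2. All of the samples come from 1 cell line in which each construct is driven by doxycycline.

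Polycomb complexes keep developmental genes silent. PRC2 places repressive methyl marks on histone H3 through EZH2 or its paralog EZH1, with EED and SUZ12 as the core partners without which neither enzyme works, and with JARID2 as a cofactor that helps bring the complex to its targets and stimulates it. PRC1 attaches ubiquitin to histone H2A through RNF2 or RING1, each paired with a PCGF protein such as BMI1, and CBX proteins such as CBX2 and CBX8 read the mark that PRC2 leaves. SWI/SNF and Polycomb oppose each other, and rhabdoid tumors that have lost SNF5 are known for their dependence on EZH2.

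The data were first checked against the labels. The PRO-Seq samples held 28388012 to 46859674 gene body reads and 517824 to 3381190 promoter-proximal reads, and replicate 1 of each construct had the fewest promoter-proximal reads, 517824 with EGFP, 671718 with OmoMYC and 660343 with SNF5. Levels below are RPKM values over the gene body, that is, gene body reads per kb relative to the sample's gene body total, scaled by a relative log expression factor. SMARCB1 lay between 0.000723 and 0.00365 in the EGFP and OmoMYC samples and at 1.53, 2.69 and 1.66 in the SNF5 samples (log2 fold change against EGFP 9.79, standard error 0.20, adjusted p = 4.75e-08 by edgeR's quasi-likelihood test). MYC ran from 19.8 to 28.3 with EGFP and from 30.3 to 87.7 with OmoMYC (log2 fold change 0.95, adjusted p = 0.0384 by edgeR), where reads from the construct and from the cell's own gene cannot be told apart. With SNF5, MYC stood at 14.7, 19.6 and 17.1, each below the lowest EGFP sample. VIM, KRT8 and KRT18, which rhabdoid cells express, were present in every sample at 3.98 or more, and the highest level of PTPRC, CD3E, PECAM1 or ALB, markers of leukocytes, endothelium and hepatocytes, was 0.0289.

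Of the 10 members, 9 were listed in the PRO-Seq table, 7 had reads and passed the filter of a mean of 10 reads per sample, and 2 were listed at 0. RING1 (NM_002931, chr6:33176286-33180499, hg19) had 0 reads in the promoter-proximal region and in the gene body of all 9 samples. The same held for all 12 other listed genes within 100 kb of it, the ribosomal protein gene RPS18 among them, although 8 of these 12 had an ATAC-Seq peak and 7 a MYC peak near a start, so the 0 at RING1 gives no measure of its transcription. CBX2 (NM_005189, chr17:77751977-77761449) also had 0 reads in all samples, but none of the 12 other genes within 500 kb did. Whether its 0 reflects a silent gene or reads that could not be counted was not tested. In all, 1548 symbols of the table, 7.6%, were at 0 throughout. BMI1 was not listed under its own symbol. A read-through transcript that runs over COMMD3 and BMI1 (COMMD3-BMI1, NM_001204062, chr10:22605312-22620414) was, and its reads cannot be divided between those genes, so it is given beside the members and counted with none of them. It was singled out after its values were seen.

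MYC peaks were called at the starts of 4 of the 9 listed members, all in replicate 2 of the EGFP samples. Replicate 1 of EGFP had none there, nor had either SNF5 sample. Both OmoMYC lists held only a placeholder line, with its summit outside the line, which was dropped, so no peak was counted. The authors count 1 peak in each of these lists. The EGFP lists differed in length, 940 peaks against 5396. Over all listed genes, a MYC summit lay within 1 kb of the start for 23.1% with EGFP replicate 2 and for 4.35% with replicate 1, and for 0.614% and 0.0786% in the SNF5 samples. With 2 samples per construct no test was made, and a peak list holds no read counts, so a missing peak is a peak not called.

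The strongest of these peaks was at EZH2, the main PRC2 methyltransferase of dividing cells, with a fold enrichment of 10.3 over background and rank 228 among the 5396 peaks. Its summit lay 238 bp before the listed start. The peak at RNF2, the PRC1 ubiquitin ligase, had a fold enrichment of 6.16, 159 bp before the start. At EED, which reads the mark of PRC2 and holds the complex together, it was 5.82, and the summit fell 503 bp past the listed start in a coding exon, 1 bp before another annotated start. JARID2 had a pair of weaker peaks, with fold enrichments of 4.33 and 4.24 at 464 and 1172 bp before the start. A peak of fold 4.76 lay within an intron of COMMD3-BMI1, 108 bp before the nearest start of BMI1 itself. EZH1, SUZ12, CBX8, CBX2 and RING1 had none.

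The sequences under the summits are shown for the members whose peak lay outside annotated exons, since MYC with its partner MAX binds the E-box CACGTG and, less well, variants such as CACGCG. Each is 151 bases of GRCh37 centred on the summit and read on the strand of the gene, with CACGTG and the variant CACGCG (on the other strand CGCGTG) in capitals:
EZH2, chr7:148581604-148581754, minus strand: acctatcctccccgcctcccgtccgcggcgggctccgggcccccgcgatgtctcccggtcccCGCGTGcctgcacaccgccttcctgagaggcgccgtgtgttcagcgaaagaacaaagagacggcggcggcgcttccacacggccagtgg
RNF2, chr1:185014317-185014467, plus strand: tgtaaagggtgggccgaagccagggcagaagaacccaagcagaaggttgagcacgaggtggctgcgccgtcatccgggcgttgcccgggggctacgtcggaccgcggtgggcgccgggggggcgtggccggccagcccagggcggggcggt
JARID2, chr6:15245988-15246138, plus strand: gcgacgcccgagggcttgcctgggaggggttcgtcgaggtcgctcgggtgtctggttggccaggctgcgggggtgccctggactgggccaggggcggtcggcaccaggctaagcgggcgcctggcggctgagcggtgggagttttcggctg
BMI1, chr10:22609845-22609995, plus strand: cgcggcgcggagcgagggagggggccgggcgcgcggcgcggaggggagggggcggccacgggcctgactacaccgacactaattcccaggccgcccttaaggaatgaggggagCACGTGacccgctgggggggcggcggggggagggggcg
Only the window at BMI1 held CACGTG. The window at EZH2, the strongest of them, held the variant, as did the one at the farther JARID2 peak, and those at RNF2, EED and the nearer JARID2 peak held neither. Over all 5396 summits of the same sample, 22.7% of such windows held CACGTG on either strand (it is its own reverse complement), 24.1% held CACGCG and 43% held at least 1 of them. In the RefSeq promoter table (GRCh38.p14, 250 bases before to 50 after each start), 8 members matched, with 11 promoters. CACGTG occurred in 1 of these promoters, at BMI1, 70 bases before the start, and in 7.26% of all 35116 promoters. The promoter of COMMD3-BMI1, not counted with the members, also held it, 8 bases before the start.

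In the EGFP cells, the gene body levels of the 7 members with reads fell into 3 tiers. EED was at 3.10 ± 0.55 (SD, n = 3, as for the values that follow) and CBX8, a PRC1 reader, at 2.78 ± 0.66, and these overlapped. RNF2 (2.103 ± 0.083), SUZ12 (2.05 ± 0.18) and EZH2 (2.03 ± 0.14) lay together below them with overlapping samples. EZH1, the paralog of EZH2, was at 1.01 ± 0.22 and JARID2 at 0.62 ± 0.25, again overlapping each other and below the 3 before. EED was above 85% of the symbols in the table and JARID2 above 52.1%. COMMD3-BMI1 was at 14.7 ± 3.3, above 98.6%. SUZ12 has a pseudogene, SUZ12P1, on the same chromosome, and the authors removed reads of low mapping quality, so its count is uncertain.

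**Figure D1:**
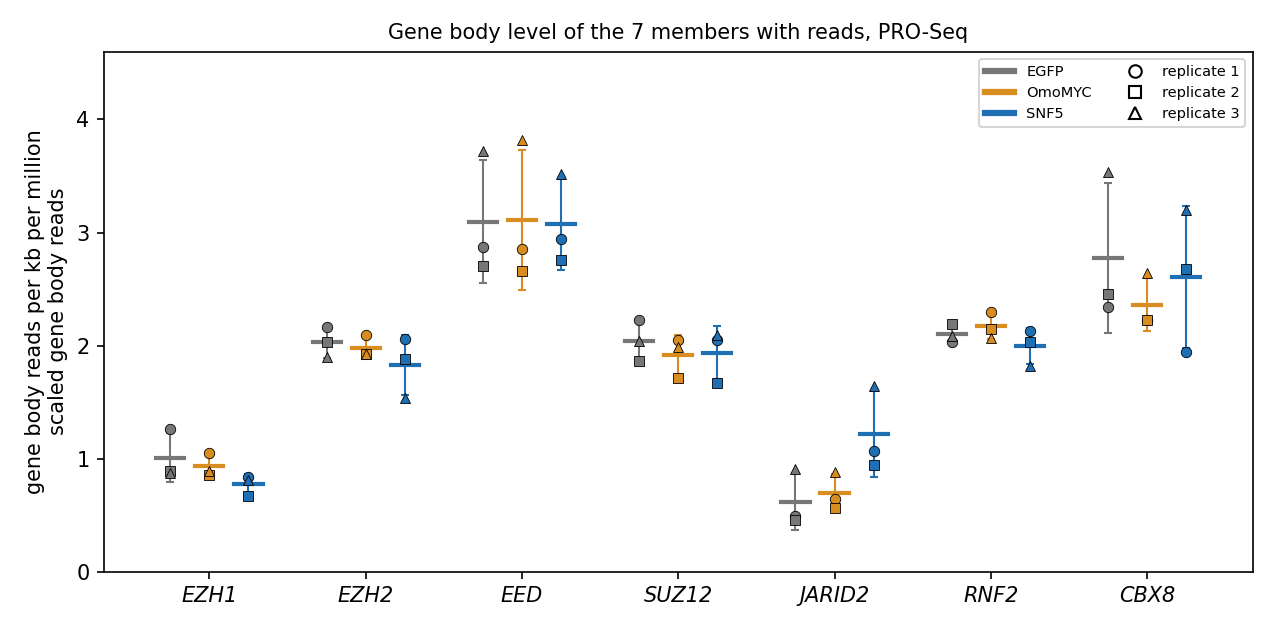
Gene body level (RPKM on scaled gene body totals) of the 7 members with PRO-Seq reads, in each of the 3 samples of EGFP, OmoMYC and SNF5; bars and whiskers are the mean and SD. JARID2 stands at 0.942 to 1.65 in the SNF5 samples, above all 3 EGFP samples (0.456 to 0.909), while EED keeps to 2.66 to 3.82 throughout.

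With SNF5, polymerase on the gene body rose at JARID2 and fell at EZH1. With all samples in the fit, no other member passed the test. Of the 7 members tested, 1 rose and 1 fell (adjusted p under 0.05, edgeR's quasi-likelihood test, fitted to 15060 genes and blocked by replicate number), beside 17.6% of all genes higher and 16.5% lower, so that the counts are near those of genes in general. The median log2 fold change of the members was -0.08 and that of all genes -0.03. Without the block 0 members passed by edgeR (1 at an unadjusted p under 0.05), and 225 of all genes did.

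JARID2 (NM_004973, chr6:15246527-15522253, 275.7 kb) had gene body levels of 0.490, 0.456 and 0.909 in EGFP replicates 1 to 3, 0.644, 0.562 and 0.883 in the OmoMYC samples, and 1.07, 0.942 and 1.65 in the SNF5 samples. Every SNF5 sample lay above every EGFP and OmoMYC sample, and replicate 3 was the highest in each construct. The SNF5 level was 2.18, 2.06 and 1.81 times that of the EGFP sample with the same number. In the fit, the log2 fold change was 1.00 (standard error 0.08, adjusted p = 6.74e-05 by edgeR). Against OmoMYC it was 0.79 (standard error 0.08, adjusted p = 0.000306). These calls stood with each replicate number left out in turn (log2 fold change against EGFP 0.94 to 1.08), with DESeq2 and with another scaling, and were lost without the replicate block (adjusted p = 0.214 against EGFP and 0.464 against OmoMYC by edgeR).

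EZH1 (NM_001991, chr17:40852293-40897071) moved the other way and by less. Its levels were 1.26, 0.893 and 0.874 with EGFP, 1.05, 0.853 and 0.894 with OmoMYC, and 0.836, 0.673 and 0.815 with SNF5. The SNF5 samples lay below all EGFP and all OmoMYC samples. The log2 fold change against EGFP was -0.37 (standard error 0.09, adjusted p = 0.0145 by edgeR), and against OmoMYC -0.27 (adjusted p = 0.0737). The call against EGFP was lost without replicate 1 (adjusted p = 0.183 by edgeR), without replicate 2 (0.144), with only these constructs in the fit (0.0524) and without the block (0.362). Without replicate 3, EZH1 also passed against OmoMYC (log2 fold change -0.34, adjusted p = 0.00166 by edgeR).

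EZH2 (NM_004456, chr7:148504464-148581441), which carries the strongest MYC peak of the members, had levels of 2.17, 2.03 and 1.90 with EGFP, 2.097, 1.92 and 1.93 with OmoMYC, and 2.06, 1.89 and 1.54 with SNF5. The groups overlapped, although each SNF5 sample was below the EGFP sample of its number. The log2 fold change with SNF5 was -0.16 (95% confidence interval -0.31 to -0.01, adjusted p = 0.0945 by edgeR). With OmoMYC it was -0.03 (95% confidence interval -0.19 to 0.12). Without replicate 3, the fall of EZH2 with SNF5 passed (log2 fold change -0.10, adjusted p = 0.0209 by edgeR).

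The PRC2 core partners EED and SUZ12 and the PRC1 genes RNF2 and CBX8 did not pass. For EED (NM_152991, chr11:85955806-85989785) the log2 fold change with SNF5 was -0.01, with a 95% confidence interval of -0.13 to 0.12. For SUZ12 (NM_015355, chr17:30264044-30328057) it was -0.08 (-0.21 to 0.05), and for RNF2 (NM_007212, chr1:185014551-185071740) -0.08 (-0.22 to 0.06). CBX8 (NM_020649, chr17:77768176-77770915) is a short gene with 114 to 285 gene body reads per sample, and its interval was wider, -0.46 to 0.27. The SNF5 and EGFP samples of all 4 overlapped. Without replicate 3, SUZ12 passed as lower with SNF5 (log2 fold change -0.15, adjusted p = 0.00352 by edgeR).

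On the read-through transcript COMMD3-BMI1, levels were 10.9, 17.3 and 15.9 with EGFP, 10.3, 14.3 and 18.5 with OmoMYC and 7.04, 10.8 and 13.9 with SNF5. The groups overlapped, but each SNF5 sample was below the EGFP sample of its number, at 0.644, 0.625 and 0.873 times its level. The log2 fold change against EGFP was -0.51 (standard error 0.09, adjusted p = 0.00444 by edgeR) and against OmoMYC -0.45 (adjusted p = 0.0111). The call against EGFP was lost without replicate 1 (adjusted p = 0.0626 by edgeR), without replicate 2 (0.064) and without the block (0.539), as was the call against OmoMYC (0.112, 0.0558 and 0.801). COMMD3, which takes part in endosomal sorting, is the other gene in these reads.

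OmoMYC was compared with the same 3 EGFP samples as SNF5. With OmoMYC, none of the 7 members passed the test on the gene body, by edgeR or by DESeq2, where 4.1% of all genes rose and 4.42% fell, and 1 member had an unadjusted p under 0.05. That member was JARID2, with a log2 fold change of 0.21 (95% confidence interval 0.04 to 0.39, adjusted p = 0.109 by edgeR). The other 6 ranged from -0.22 at CBX8 to 0.05 at RNF2. Without replicate 3, JARID2 (0.34) and SUZ12 (-0.13) passed. In the direct comparison of SNF5 with OmoMYC, JARID2 was the member that differed, beside 11.5% of all genes higher and 7.38% lower with SNF5.

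**Figure D2:**
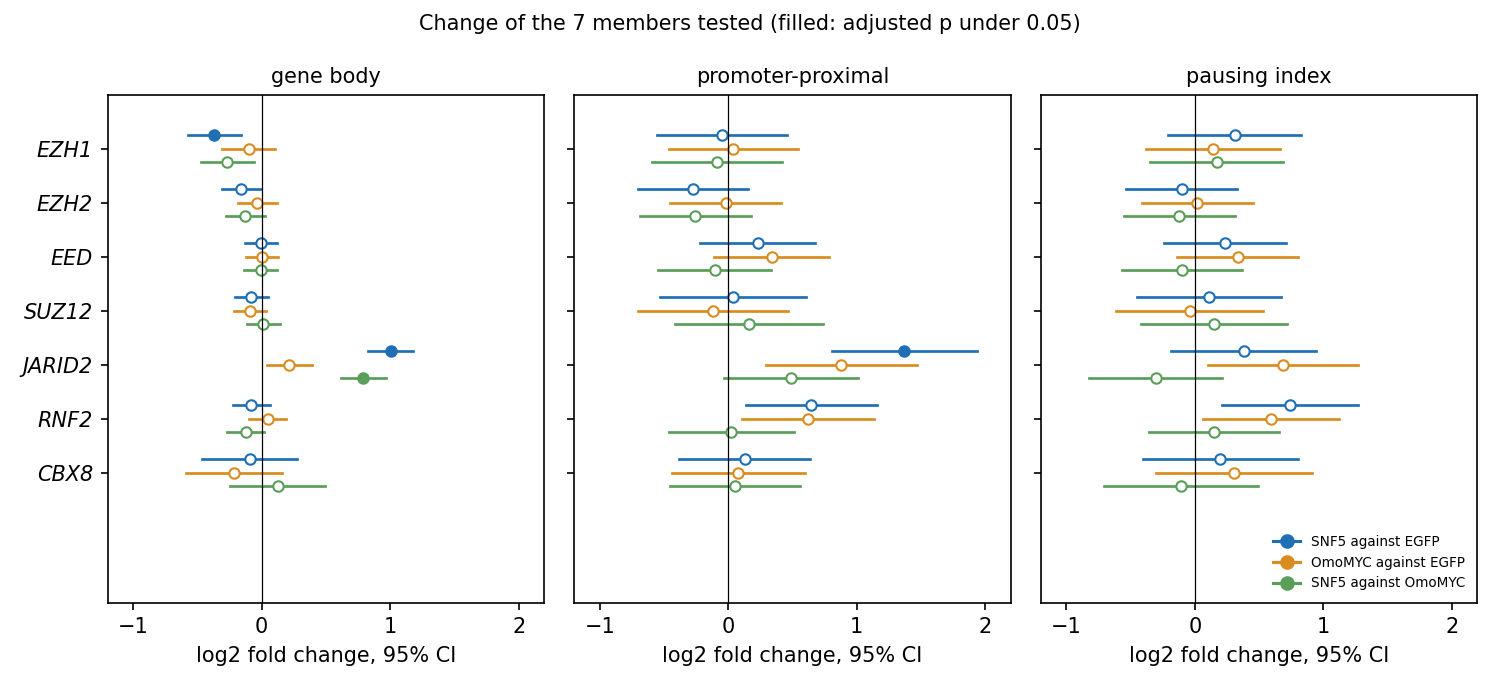
Log2 fold change of the 7 members tested, with the 95% confidence interval, for gene body reads, promoter-proximal reads and the pausing index; filled points passed an adjusted p under 0.05. JARID2 stands apart in the gene body (1.00 with SNF5 against EGFP) and near the promoter (1.37), and no member passed for the pausing index.

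Near the promoters, the authors searched 500 bp to either side of each start for the 50 bp holding the most reads, and counted those. JARID2 again was the member that passed with SNF5, 1 of 7 beside 2.64% of 11241 genes higher and 1.63% lower. It had 0.260, 1.04 and 0.562 promoter-proximal RPM (reads relative to the same totals) with EGFP, 0.521, 2.11 and 0.880 with OmoMYC, and 0.742, 2.33 and 1.59 with SNF5, on 9 to 83 reads per sample. The groups overlapped, while within each replicate number the order was EGFP, OmoMYC, SNF5. SNF5 gave a log2 fold change of 1.37 (standard error 0.28, adjusted p = 0.00268 by edgeR) and OmoMYC one of 0.88 (standard error 0.29, adjusted p = 0.117), and SNF5 did not pass against OmoMYC (0.49, adjusted p = 0.395). The SNF5 call was lost without replicate 2 (adjusted p = 0.0504 by edgeR) and without the block (1).

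RNF2 had more promoter-proximal reads than EGFP in all 3 replicate numbers with either construct, 1.62, 1.46 and 1.65 times with SNF5 and 1.78, 1.71 and 1.23 times with OmoMYC. The log2 fold changes were 0.64 (standard error 0.25, adjusted p = 0.132 by edgeR) and 0.62 (standard error 0.25, adjusted p = 0.218), and neither passed. EZH2, EED, EZH1, SUZ12 and CBX8 lay between -0.28 and 0.34 in these comparisons, and none of them passed. With OmoMYC no member passed by edgeR or DESeq2 (2 at an unadjusted p under 0.05), beside 1.63% of all genes higher and 0.169% lower, and with SNF5 against OmoMYC none did (0 at an unadjusted p under 0.05), beside 0.48% and 0.347%.

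The pausing index, the density of promoter-proximal reads over that of gene body reads, was highest at EZH2 among the members in each EGFP sample. It was 22.9, 132 and 77.7 there in EGFP replicates 1 to 3, against 12.3, 95.7 and 31.1 at EZH1 and 5.69, 12.3 and 10.6 at SUZ12. Within the EGFP samples the index of all 7 members was lowest in replicate 1, the number with the fewest promoter-proximal reads. No member passed for a change of the index by edgeR or DESeq2, and 1 with SNF5, 2 with OmoMYC and 0 between them had an unadjusted p under 0.05 by edgeR. RNF2 came nearest, with 5.12, 16.0 and 9.52 with EGFP, 8.06, 27.8 and 11.8 with OmoMYC, and 7.90, 25.1 and 18.0 with SNF5. SNF5 gave it a log2 change of 0.74 (standard error 0.26, adjusted p = 0.0985 by edgeR) and OmoMYC one of 0.59 (standard error 0.27, adjusted p = 0.254).

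At JARID2, SNF5 gave a log2 change of the index of 0.38 (standard error 0.28, adjusted p = 0.5 by edgeR) and OmoMYC one of 0.69 (standard error 0.29, adjusted p = 0.229). The OmoMYC values stand beside a shift of all genes, whose median was 0.14 for the index and 0.13 for promoter-proximal reads. When promoter-proximal reads were scaled by their own totals, that median of the index was -0.01, and RNF2 passed with SNF5 (0.76, adjusted p = 0.0396 by edgeR). Of all 11171 genes, 2.02% had a higher and 1.64% a lower index with SNF5, 2.18% and 0.0806% with OmoMYC, and 0.125% and 1.1% with SNF5 against OmoMYC.

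**Figure D3:**
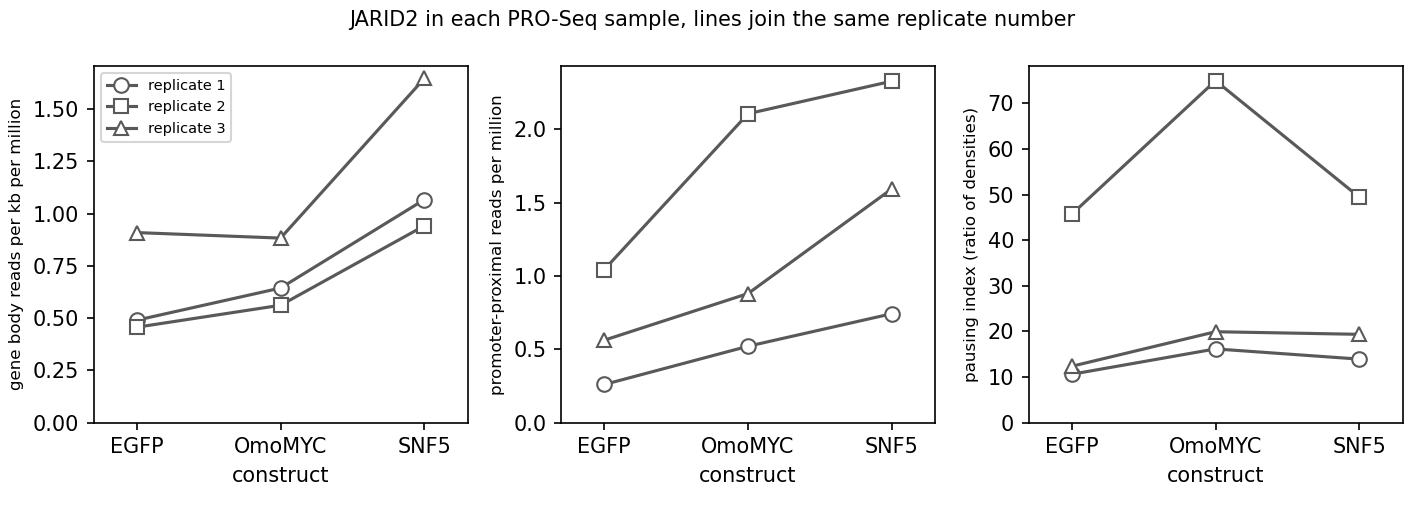
JARID2 in each PRO-Seq sample: gene body RPKM (left), promoter-proximal RPM (middle) and pausing index (right), with lines joining samples of the same replicate number. Gene body reads rise from OmoMYC to SNF5 in all 3 numbers, and promoter-proximal reads stand in the order EGFP, OmoMYC, SNF5 in each number.

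ATAC-Seq peaks, called in hg38, showed which member promoters were accessible. EZH2, EED, JARID2, BMI1, RNF2 and CBX8 had a peak within 1 kb of a start in all 9 samples, and RING1 had none in any. A peak in all 3 samples of a construct was seen at 6 members with EGFP, 6 with OmoMYC and 8 with SNF5, beside 34.8%, 31% and 50.7% of all 16977 genes with a start in that build. Counting peaks present in at least 2 of 3 samples, 7 of 10 members had an open start with EGFP, 7 with OmoMYC and 9 with SNF5, beside 45.3%, 43.7% and 57.2% of those genes. The SNF5 lists were the longest, with 22722 to 33596 peaks against 9208 to 17817 for EGFP and 7260 to 23684 for OmoMYC. With the 7260 strongest peaks of every sample, 6, 6 and 5 members had an open start, and the part of list length in the difference was not tested beyond this.

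CBX2 was the member whose start was open with SNF5 and not with EGFP. The peak (chr17:79777679-79778110, hg38) was called in all 3 SNF5 samples, with fold enrichments of 4.43, 4.25 and 5.37, in 1 OmoMYC sample, replicate 2 with the longest list of that construct, at 4.69, and in 0 of 3 EGFP samples. That pattern held for 2.19% of all genes between SNF5 and EGFP. Among the 7260 strongest peaks it was in none of the samples. CBX2 had 0 reads in all PRO-Seq samples, so its counts give no measure of whether transcription changed with the peak. SUZ12 had an open start in 1 EGFP, 2 OmoMYC and 3 SNF5 samples, and EZH1 in 2, 1 and 2.

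JARID2 spans 276 kb and carried peaks beyond its promoter. Its span held 3, 3 and 3 peaks in the EGFP samples, 2, 7 and 1 in the OmoMYC samples and 7, 5 and 5 in the SNF5 samples. The promoter peak (chr6:15245217-15246061) was in all 9 samples, with fold enrichments of 5.25 to 7.60 with EGFP and 5.23 to 6.13 with SNF5. A site inside the gene, chr6:15464196-15464559 218.3 kb past its first start, was called in all 3 SNF5 samples (8.22, 6.36 and 5.94), in OmoMYC replicate 2 (6.60) and in no EGFP sample. Of 1365 genes whose span was at least 200 kb, 34.9% held at least 1 site with that SNF5 and EGFP pattern. Within BMI1, a site at chr10:22325623-22325885, 4655 bp past its first start and 84 bp from another annotated start, was called in 3 SNF5 samples, 1 EGFP and 0 OmoMYC samples.

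**Figure D4:**
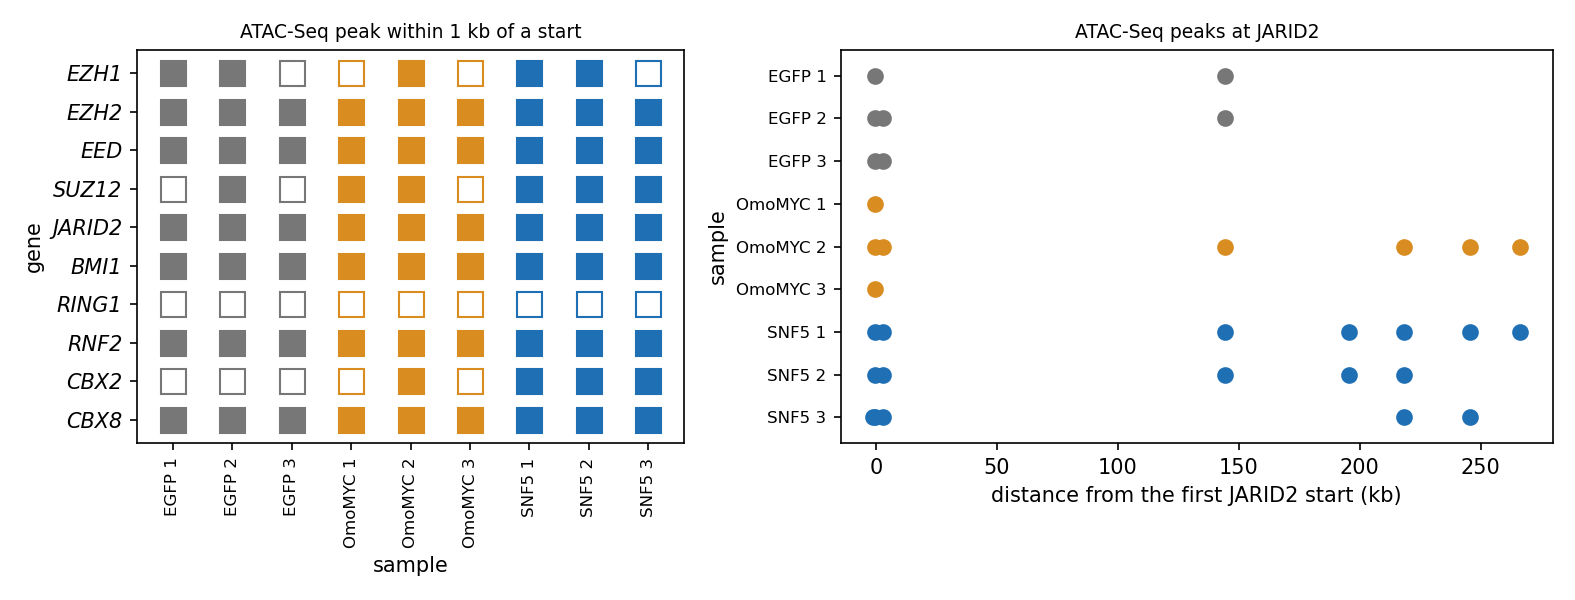
Left, filled squares mark samples with an ATAC-Seq peak within 1 kb of a start of each of the 10 members. Right, each point is a peak at JARID2 in 1 sample, by distance in kb from its first start; peaks 195.4 to 266.3 kb in are seen in the SNF5 samples and in OmoMYC replicate 2, and in no EGFP sample.

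The other Polycomb genes, 41 in all, were read in the same way, as PRC2 cofactors, further PRC1 subunits and enzymes that remove Polycomb marks, with their partners. Of these, 40 were listed, 2 of them (PHF1 and KDM2B) at 0 reads, and 37 were tested on the gene body. Whether PHF1 and KDM2B are silent or their reads could not be counted was not tested. With SNF5, 4 of 37 rose and 9 fell, that is 10.8% and 24.3% beside 17.6% and 16.5% of all genes, with a median log2 fold change of -0.06. With OmoMYC 3 rose and 0 fell, beside 4.1% and 4.42% of all genes, and between SNF5 and OmoMYC 2 were higher and 5 lower with SNF5, beside 11.5% and 7.38%. Without the block 0 passed by edgeR in these comparisons (8, 3 and 4 at an unadjusted p under 0.05), and the counts rested on the replicates. Without replicate 1, 2 or 3, the SNF5 count of 13 became 2, 3 or 21, the OmoMYC count of 3 became 0, 0 or 18, and the count of 7 between them became 0, 0 or 15. With DESeq2 they were 13, 6 and 7, and with only the constructs compared in the fit 8, 6 and 5. RYBP passed with SNF5 in each of the fits that left out a replicate.

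Among the 8 PRC2 cofactors tested, 2 rose and 1 fell with SNF5, 25% and 12.5% beside 17.6% and 16.5% of all genes. PALI1 (listed as LCOR) and PALI2 (LCORL) join the same PRC2 subtype. The reads are those of the listed LCOR and LCORL transcripts, and the share that belongs to the PALI forms was not told apart. Their log2 fold changes were 0.21 and 0.25 with SNF5 and 0.18 and 0.24 with OmoMYC, and all 4 values passed (adjusted p from 0.00646 to 0.0489 by edgeR). All 4 calls were lost without replicate 1, without replicate 2 and without the block, and that of PALI1 with OmoMYC also with TMM scaling (adjusted p = 0.0599 by edgeR) and without the filter on low counts (0.0547). EPOP (C17orf96), which dampens PRC2 at active chromatin, fell by 0.46 on the log2 scale with SNF5 (standard error 0.09, adjusted p = 0.00453 by edgeR). Its levels were 11.2, 16.1 and 15.8 with EGFP and 9.24, 11.0 and 10.9 with SNF5, with every SNF5 sample below every EGFP sample. The EPOP call was lost without replicate 2 (adjusted p = 0.098 by edgeR) and without the block (0.234).

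Of the 24 PRC1 subunits tested, 2 rose and 8 fell with SNF5, 8.33% and 33.3% beside 17.6% and 16.5% of all genes. PCGF5, a PCGF protein of the variant complexes, had the largest log2 fold change, 1.57 (standard error 0.27, adjusted p = 0.003 by edgeR), and 1.19 with OmoMYC (adjusted p = 0.0358). It was nearly silent, with levels of 0.0110, 0.0133 and 0.00684 with EGFP and 0.0431, 0.0333 and 0.0174 with SNF5, on 20 to 110 reads per sample. RYBP, which replaces CBX proteins in the variant complexes, rose by 0.51 (standard error 0.08, adjusted p = 0.00166 by edgeR), with 1.73, 1.60 and 1.72 with EGFP and 2.32, 2.06 and 2.87 with SNF5. The PCGF genes PCGF2, PCGF1 and PCGF6 fell by 0.39, 0.35 and 0.30 on the log2 scale (adjusted p = 0.00348, 0.0213 and 0.0133 by edgeR), and the other 5 that fell did so by 0.20 to 0.29. Without replicate 1, RYBP (adjusted p = 0.0225 by edgeR) was the PRC1 subunit still called, and without replicate 2 RYBP (0.0128), PCGF5 (0.0366) and PCGF2 (0.046) were.

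Between SNF5 and OmoMYC, PHC2, a PRC1 subunit that can polymerize, and RYBP were higher with SNF5 (0.53 and 0.31), and EPOP (-0.32), PCGF2 (-0.28), E2F6 (-0.26) and PCGF3 (-0.24) were among the 5 lower ones, and all of these calls were lost without replicate 1, without replicate 2 and without the block. For the pausing index with SNF5, 1 of 33 genes tested passed, 3.03% higher beside 2.02% higher and 1.64% lower of all genes. It was SCML2, a PRC1-associated protein, with a log2 change of 1.03 (standard error 0.30, adjusted p = 0.0345 by edgeR). SCML2 had 10 to 76 promoter-proximal reads per sample, and its gene body count fell with SNF5 (-0.20, adjusted p = 0.017 by edgeR). The call for the index was lost with DESeq2 (adjusted p = 0.108), with only SNF5 and EGFP in the fit (0.0666), without the block (1) and with each replicate left out (0.0646, 0.55 and 0.0513 by edgeR). The 5 opposing genes tested were the deubiquitinase BAP1, its partners ASXL1 and ASXL2, and the demethylases KDM6A and KDM6B. None of them passed in any comparison by edgeR with all samples in the fit. On the gene body 3 had an unadjusted p under 0.05 by edgeR with SNF5, 1 with OmoMYC and 0 between them. Log2 fold changes there were -0.23 to 0.16 with SNF5 and -0.13 to 0.18 with OmoMYC. Without replicate 3, BAP1 (-0.325, adjusted p = 0.00593 by edgeR) and ASXL2 (-0.111, 0.00472) passed with SNF5. In that fit KDM6B passed with OmoMYC (0.261, 0.00327) and for SNF5 against OmoMYC (-0.208, 0.0127).

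**Figure D5:**
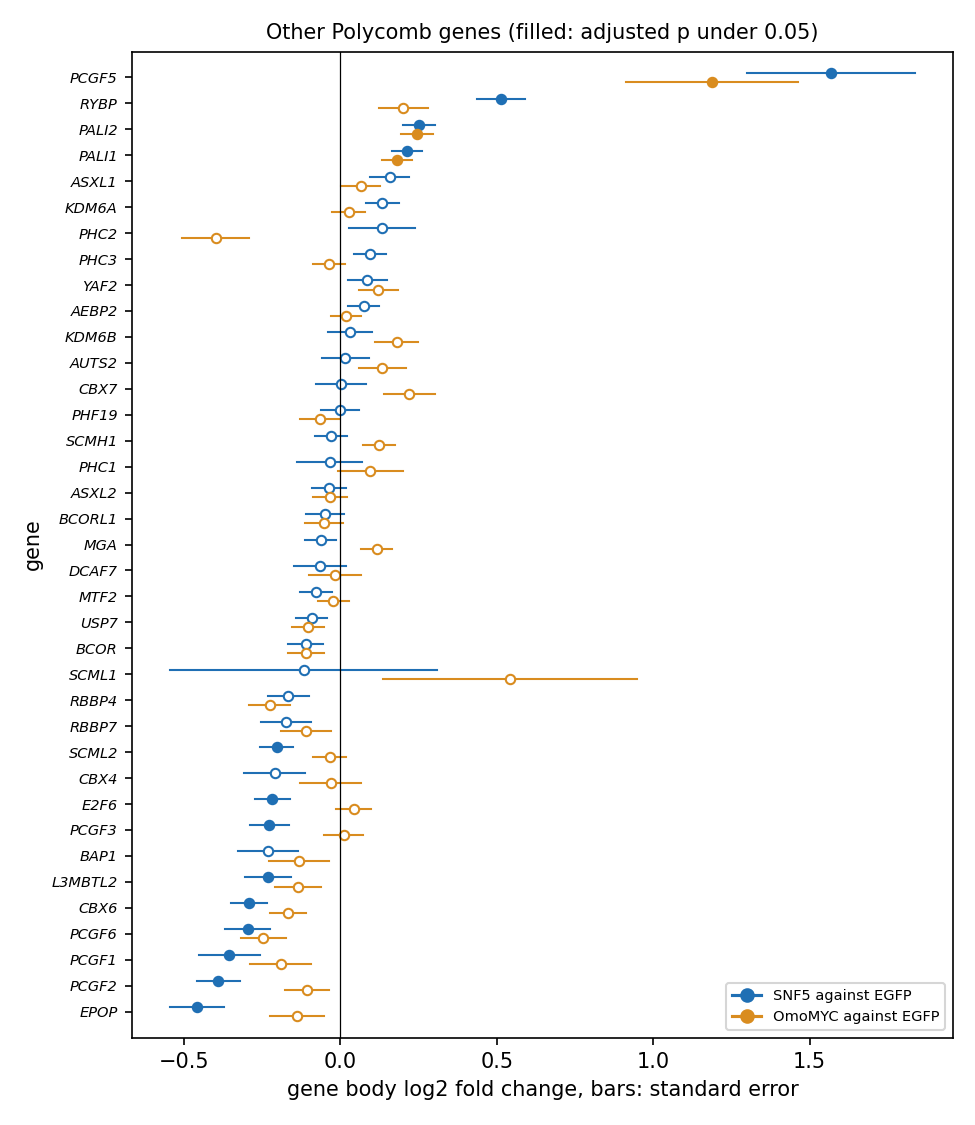
Gene body log2 fold change (standard error as bars) of the 37 other Polycomb genes tested, with SNF5 and with OmoMYC against EGFP, ordered by the SNF5 value; filled points passed an adjusted p under 0.05. PCGF5 (1.57 and 1.19) lies far to the right and EPOP (-0.46 with SNF5) at the lower end.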

How the data were processed

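G401 cells expressing EGFP, OmoMYC or SNF5 were compared in PRO-Seq (3 samples per construct), ATAC-Seq (3) and MYC ChIP-Seq (2). IgG samples were not used here. The members and gene lists were chosen with earlier results of these data known.

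For PRO-Seq, the authors trimmed reads with cutadapt, aligned them to hg19 with Bowtie2, removed reads on rRNA loci or of mapping quality under 10, and used NRSA to count what was left on RefSeq transcripts. As deposited, the table gives unnormalized read counts for the 50 bp promoter-proximal window and for the gene body (from 1 kb past the start), and a gene body signal in reads per bp, which was used to check the gene body length. For ChIP-Seq (hg19) and ATAC-Seq (hg38), the authors called peaks in each sample with MACS2. The ATAC-Seq list of OmoMYC replicate 2 carries an internal name that ends in another replicate's number. The sample it was deposited under was kept. The deposited lists give a fold ratio over background, a −log10 q, of at least 2.02 for MYC and 3.02 for ATAC-Seq, and a score, and hold no read counts.

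A single transcript, that with most reads, was kept per symbol. Counts with a mean of at least 10 were tested with edgeR 4.0.16 (quasi-likelihood, R 4.3.3) across all genes, with offsets from gene body totals and RLE factors for both regions and a blocking term for replicate number. The pausing index was tested as the construct-by-region interaction, with a term per sample. Tests were two-sided, at a Benjamini-Hochberg adjusted p of 0.05. They measure the spread between these samples, which may be technical. After removal of construct means, samples of the same number correlated across genes at 0.753 to 0.882 (gene body) and 0.689 to 0.849 (promoter-proximal), and other pairs at −0.668 to 0.126 and −0.606 to −0.058, so the numbers were taken to pair the samples. That the numbers are batches is inferred from this and from the authors' own use of batch. Tests were checked on simulated data.

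A gene had a MYC peak with a summit within 1 kb of its listed start, and an open start with an ATAC-Seq peak within 1 kb of a GRCh38 start given by GENCODE release 44. No coordinate was converted. Named genes are all members and, of the other Polycomb genes, up to the 4 largest changes per direction that passed for the gene body or the pausing index. Alternatives were TMM scaling, DESeq2 1.42.0, no filter on low counts, no block, fewer constructs in the fit, each replicate left out, own totals for promoter-proximal counts, a 2 kb window, stricter or equal peak lists. Figures used Python 3.11.15.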

Additional observations from a re-analysis of the deposited data

How the results depend on the processing

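Of 2076 log2 fold changes of single genes under these alternatives, 1947 kept their direction and their side of the threshold or were called in neither setting, 93 were lost, 36 were gained and 0 turned. The number of members called with SNF5 on the gene body, 2 as reported, became 0 with no replicate block, 1 with only the 2 constructs compared, and 1 to 4 with a replicate left out (4 without replicate 3). With OmoMYC, 0 as reported, it was 0 to 2 with a replicate left out. For SNF5 against OmoMYC, 1 as reported, it became 0 without the block and was 1 to 2 with a replicate left out. For promoter-proximal reads with SNF5, 1 as reported, it became 0 without the block and was 0 to 1 with a replicate left out, and with OmoMYC, 0 as reported, it was 0 to 1. For the pausing index with SNF5, 0 as reported, it became 1, RNF2, with promoter-proximal counts scaled by their own totals. The other counts of members did not change under the alternatives for PRO-Seq. The 4 members with a MYC peak were 0 to 4 with a replicate left out, and 3 at a −log10 q of at least 5. Without the block, no member passed in any PRO-Seq comparison by edgeR.

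Counts over all genes moved more. On the gene body, 5131 genes passed with SNF5, 225 without the block and 1428 to 8493 with a replicate left out. With OmoMYC 1284 passed, 1 without the block, 2 to 6716 with a replicate left out, 2097 with DESeq2 and 1943 with only these constructs. For SNF5 against OmoMYC 2848 passed, 75 without the block and 748 to 6232 with a replicate left out. No gene passed for promoter-proximal reads or the pausing index without the block (48, 9 and 27, and 9, 1 and 8, at an unadjusted p under 0.05 by edgeR). With SNF5, promoter-proximal calls were 480 as reported, 313 with DESeq2, 790 without the filter, 993 with own totals and 47 (without replicate 2) to 996 with a replicate left out, and pausing index calls 409, 101 with DESeq2, 176 with only these constructs, 821 with own totals and 4 (without replicate 2) to 620 with a replicate left out. With OmoMYC, promoter-proximal calls were 202, 305 without the filter and 3 to 886 with a replicate left out, and pausing index calls 252, 68 with DESeq2 and 0 to 954 with a replicate left out. For SNF5 against OmoMYC they were 93, 61 with DESeq2, 258 without the filter, 292 with only these constructs and 21 to 484 with a replicate left out, and 137, 40, 195, 329 and 6 to 484 in the same order. With own totals the OmoMYC split of higher and lower genes went from 183 and 19 to 129 and 119 for promoter-proximal reads and from 243 and 9 to 127 and 66 for the pausing index. The cause of these changes was not tested. Promoter-proximal values at JARID2 rest on 9 to 83 reads per sample.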
